A study of Mus musculus with 4 samples.

Results

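The genes of the contractile apparatus of heart muscle were read in Sca-1 cells sorted from hearts of Cyc and Wt mice. They comprise 39 genes chosen by name, of 18193 genes on the array, for myosins, actins, troponins, Z-disc and calcium-handling proteins and muscle enzymes. The choice was made with earlier results of these data known. These genes are represented by 74 of 45037 probe sets. Cyc mice are FVB animals that overexpress Cyclin T1 and Gαq as 2 transgenes under the α-MHC promoter, which is active in cardiomyocytes, and they develop heart failure. Wt mice are healthy wildtype FVB littermates. All animals were 6 weeks old, and the labels name no agent. Each genotype was represented by 2 arrays, each hybridized with RNA from 1 pool of freshly isolated Sca-1 cells from several hearts. Pools are called Cyc 1, Cyc 2, Wt 1 and Wt 2, and the numbers were taken as the 2 independent experiments. Transcripts added as labelling controls had median intensities of 238.1 and 214.3 in the pools of experiment 1 and of 1.3 and 0.9 in those of experiment 2. Of the transgenes, Gnaq was higher in Cyc pools at 1 of the 7 probe sets that the platform annotation used here gives it, at 723.6 and 492.3 beside 22.7 and 4.1, and did not pass the thresholds at the other 6, nor did Ccnt1, which encodes Cyclin T1. Ly6a, the gene of Sca-1, had no probe set under that symbol alone.

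In a cardiomyocyte, thick filaments of myosin slide along thin filaments of actin, and troponin and tropomyosin make this sliding depend on calcium. Z-discs anchor the thin filaments, titin spans the sarcomere, and the sarcoplasmic reticulum releases and takes back calcium through a release channel and a pump. Atrial and ventricular myocytes use different myosin light chains, and a stressed ventricle is known to turn on genes of the fetal heart. The cells studied here were sorted magnetically by Sca-1, a surface antigen and not a muscle protein, yet RNA of sarcomere genes was read in all 4 pools. In a bulk sample, fewer cells of a type and less RNA per cell cannot be told apart.

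The values are probe set intensities on a linear scale, normalized by the authors, and the number of arrays limits their precision. Values below 0 were set to 0, 16 was added and log2 taken, so fold changes of dim genes are understated. Each gene is given at its brightest probe set. Of the 39 genes, 22 had an intensity of 50 or more in every pool. The 32 genes with 50 or more in at least 2 pools were tested within a limma fit over 20680 probe sets. Acta1 and Ankrd1 entered through the Cyc pools alone and Cox7a1 through the Wt pools alone, so these 3 had to differ to some extent. Of the 7 genes not tested, Actn2, Ryr2, Sln and Smpx lay below 50 in every pool, and Myh7, Ckmt2 and Csrp3 reached 50 in 1 pool. A gene is said to rise or fall where it differed at least 2-fold with an unadjusted p under 0.05, the thresholds of the study. No probe set of the array passed after correction for multiple tests (limma, smallest adjusted p = 1), although 412 had an unadjusted p under 0.05. With the experiment as a block, 1443 had one. The Gnaq probe set that was higher in Cyc pools then passed after correction (limma, adjusted p = 0.0375). Whether it reads RNA of the transgene was not tested. The labels do not say whether the pools share animals, and the p-values measure only the spread between these pools.

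The stretches of 250 bases before the transcription start are shown for the gene that rose (Ankrd1), for a further stress gene (Acta1), for a ventricular light chain (Myl3), and for Myh6, which encodes α-MHC, the source of the transgene promoter. They are given 5′ to 3′ from the mouse build GRCm38.p6 of RefSeq, at chr19:36119845-36120094 (minus strand), chr8:123894776-123895025 (minus), chr9:110763428-110763677 (plus) and chr14:54966608-54966857 (minus). Capitals mark matches to 5 motifs searched on both strands. They are the TATA box TATAAA, a site of GATA factors written AGATAA, the M-CAT core of TEAD factors written CATTCC, the MEF2 box and the CArG box of serum response factor. A TATAAA can lie within a MEF2 box. The promoter fragment used in the transgenes was not analysed here.
Ankrd1: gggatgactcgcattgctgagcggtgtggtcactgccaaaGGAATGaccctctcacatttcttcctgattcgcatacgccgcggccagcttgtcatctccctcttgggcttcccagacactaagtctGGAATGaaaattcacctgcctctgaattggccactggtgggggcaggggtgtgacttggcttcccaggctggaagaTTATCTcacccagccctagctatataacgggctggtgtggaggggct
Acta1: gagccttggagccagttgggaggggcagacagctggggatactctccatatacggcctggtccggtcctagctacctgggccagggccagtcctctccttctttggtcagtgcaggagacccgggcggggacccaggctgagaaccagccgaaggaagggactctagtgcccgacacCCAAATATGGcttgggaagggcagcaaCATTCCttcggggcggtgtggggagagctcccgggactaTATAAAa
Myl3: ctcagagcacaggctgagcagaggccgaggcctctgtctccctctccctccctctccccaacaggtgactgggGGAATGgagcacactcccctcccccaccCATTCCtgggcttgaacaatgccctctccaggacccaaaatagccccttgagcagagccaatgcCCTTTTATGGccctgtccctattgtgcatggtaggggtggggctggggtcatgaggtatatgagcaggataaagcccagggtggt
Myh6: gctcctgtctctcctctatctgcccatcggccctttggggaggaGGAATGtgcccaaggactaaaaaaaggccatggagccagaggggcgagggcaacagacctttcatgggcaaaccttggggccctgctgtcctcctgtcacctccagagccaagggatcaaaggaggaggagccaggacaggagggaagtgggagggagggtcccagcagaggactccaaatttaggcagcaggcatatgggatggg
CATTCC matched in all 4 stretches, 2 times in Ankrd1 and Myl3, and a CArG box matched in Acta1 and Myl3 alone of these 4. Over all 32851 promoter windows of this length, 12.6% held CATTCC, 1.47% a CArG box, 2.92% a MEF2 box, 9.99% AGATAA and 12.4% TATAAA. RefSeq windows were found for 34 of the 39 genes, 44 windows in all. Among these windows, 25% held CATTCC, 15.9% a CArG box, 11.4% a MEF2 box, 18.2% AGATAA and 9.09% TATAAA. Of the 4 genes past the thresholds, Ankrd1 matched CATTCC and AGATAA, Tmem182 TATAAA, and Mb none of the 5. The windows of Myl2 lie at the upstream end of its annotated span, and no match is given for it, although the shares above count them. These shares are of windows that can overlap, so the same CArG box of Ldb3 is counted more than once. A match is a description of the letters and not a binding site.

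Ankrd1 rose in Cyc cells, and Myl2, Mb and Tmem182 fell, while 28 of the 32 tested genes did not pass the thresholds. Over all tested probe sets 0.735% rose and 0.116% fell. The members were chosen with earlier results known, and the study had named Ankrd1 as higher and Mb as lower on these arrays. The shares are therefore given for description alone. With the experiment as a block, the same 4 genes passed, and 0.924% of all tested probe sets rose and 0.227% fell. The genotypes did not overlap in 16 genes, of which 6 were brighter in both Cyc pools (15.1% of all tested probe sets) and 10 dimmer in both (8.23%). Within the experiments, 9 genes were higher in the Cyc pool both times (26.1% of all) and 14 lower both times (29.1%). The other 9 changed sides. For Ankrd1, Acta1 and Cox7a1, which entered the test through 1 genotype alone, the filter fixed the order in these counts. The median log2 difference between Cyc and Wt was -0.23, with -0.41 in experiment 1 and 0.00 in experiment 2. Over all tested probe sets these medians were -0.02, -0.10 and 0.06. By function the medians of tested genes were -0.03 for the thick filament and -0.29 for the thin filament. They were 0.18 for the Z-disc, titin and cytoskeleton, 0.19 for calcium handling and -0.72 for energy metabolism. The Z-disc group counts Tmem182, a membrane protein of muscle.

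Ankrd1, a stress-responsive protein of the sarcomere and nucleus, had intensities of 202.7 and 189.8 in Cyc 1 and Cyc 2 and of 46.6 and 43.1 in Wt 1 and Wt 2. Both Cyc pools lay far above both Wt pools, and the pools of a genotype were close to each other. As both Wt pools lay below 50, it was at least 3.92-fold higher in Cyc cells (log2 difference 1.80, standard error 0.22, limma, adjusted p = 1). The difference was 1.81 in experiment 1 and 1.80 in experiment 2, and from 1.76 to 1.85 when single pools were left out. A further probe set of Ankrd1 had intensities of 114.8 and 94.0 in Cyc pools, against 26.4 and 27.8 in Wt pools, and was at least 2.08-fold higher. Both probe sets passed the filter through the Cyc pools alone, which fixed their direction in the test.

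Acta1, the actin of skeletal muscle that the heart expresses in fetal life and under load, was at 93.2 and 91.8 in Cyc pools, against 45.7 and 46.9 in Wt pools. The genotypes did not overlap, and Acta1 was at least 1.85-fold higher, with log2 differences of 0.82 and 0.78 in the experiments, but it missed the 2-fold threshold (0.80, standard error 0.22). Myh7, the slow β-myosin heavy chain, was read at 35.2 and 61.4 in Cyc pools, against -0.4 and -6.8 in Wt pools, below 0 in both Wt pools and at 50 or more in Cyc 2 alone, so no fold is given. Without a filter on dim probe sets Myh7 passed the thresholds. A probe set that matches both Myh7 and Myh6 did not show this order, with 148.5 and 42.6 in Cyc and 93.6 and 43.1 in Wt cells. Myh6 was far brighter than Myh7, at 589.8 and 183.8 in Cyc and 480.4 and 227.0 in Wt pools. The shared probe set therefore cannot show the order of Myh7 alone. Csrp3, a LIM protein of the Z-disc that senses strain, differed from the other stress genes in its direction, with 25.2 and 33.4 in Cyc and 75.3 and 47.7 in Wt cells. Ankrd1 and Acta1 entered the test through the Cyc pools alone, and Myh7 and Csrp3 were not tested, so no count is read from the 4 stress genes.

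**Figure D1:**
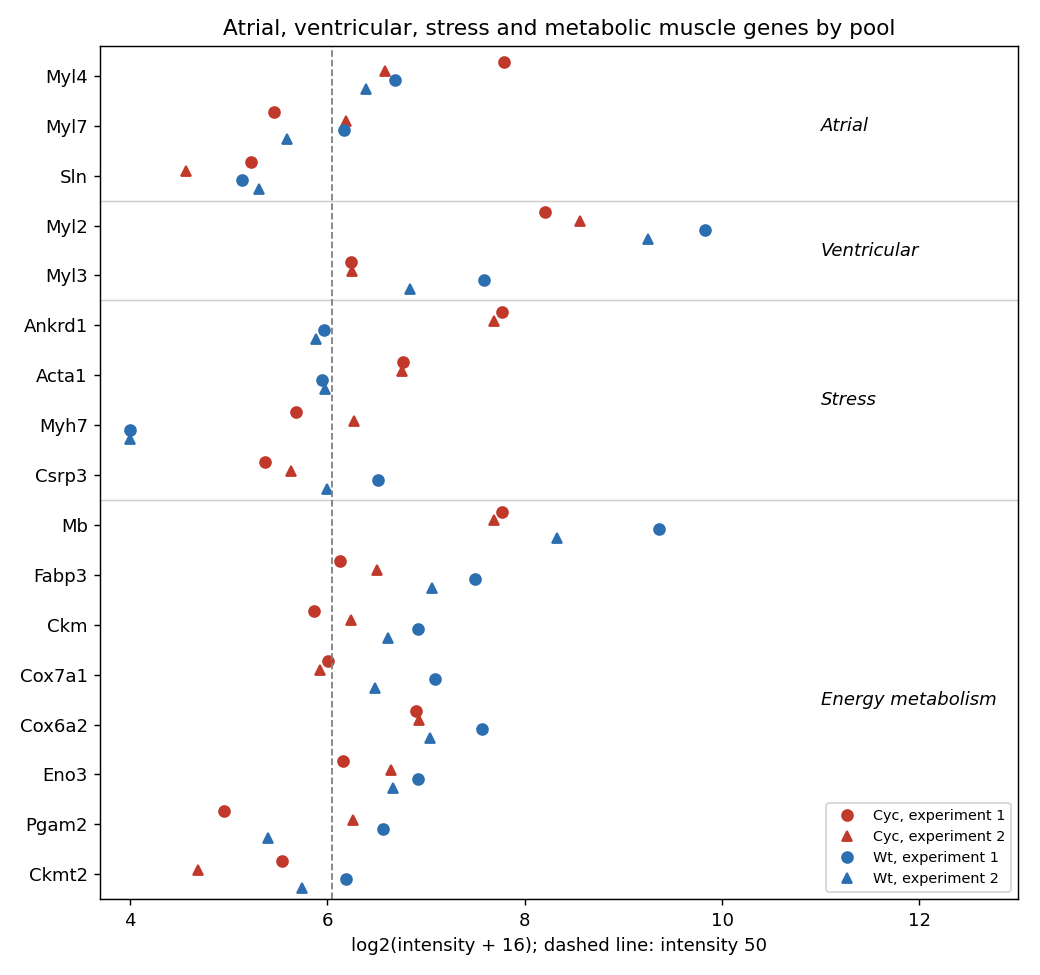
Intensity of atrial, ventricular, stress and metabolic muscle genes in each pool, as log2(intensity + 16) (red for Cyc, blue for Wt, a circle for experiment 1, a triangle for experiment 2). Cyc pools lie to the right of Wt pools for Ankrd1, Acta1 and Myh7 and to the left of them for Myl2, Myl3, Csrp3 and all metabolic genes but Pgam2, and the dashed line marks an intensity of 50.

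Myl2, the regulatory light chain of ventricular myosin, had intensities of 278.9 and 362.3 in Cyc 1 and Cyc 2 and of 893.6 and 590.5 in Wt 1 and Wt 2. Every Wt pool was brighter than every Cyc pool. Myl2 fell, with a log2 difference of -1.15 (standard error 0.31, limma, adjusted p = 1), that of experiment 1 being -1.62 and that of experiment 2 -0.68. It missed the thresholds without Cyc 1 (-0.97) and without Wt 1 (-0.86). Myl3, the essential light chain of the ventricle, was at 59.8 and 60.3 in Cyc pools, against 176.1 and 98.2 in Wt pools. The log2 difference was -0.96 (standard error 0.33) and missed the 2-fold threshold. It was -1.12 with a pseudocount of 1, which passed, and -0.73 with one of 50, which did not. At another of its 3 probe sets, with 57.2 and 56.1 in Cyc and 173.5 and 106.8 in Wt cells, Myl3 fell by 1.07. At each of the 3 probe sets the genotypes did not overlap, and Wt cells were brighter. The suffix of the brightest one marks probes that may bind other transcripts too.

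The tested atrial genes, Myl4 and Myl7, did not pass the thresholds. Myl4, the essential light chain of the atrium, had intensities of 205.0 and 79.7 in Cyc pools, against 86.8 and 68.2 in Wt pools. Cyc 1 stood alone, and Cyc 2 lay between the Wt pools (log2 difference 0.64, standard error 0.46, with 1.10 and 0.18 in the experiments). Myl7, the regulatory light chain of the atrium, was at 27.9 and 56.7 in Cyc pools, against 56.1 and 32.2 in Wt pools, higher in Wt in experiment 1 and in Cyc in experiment 2. Sln, which encodes sarcolipin, an inhibitor of the calcium pump in atria, lay between 7.7 and 23.6 in all pools, so no comparison was possible. Within each pool, log2 Myl4 minus log2 Myl2 is a ratio from 2 probe sets whose level has no meaning on its own, but which can be compared between pools. It was 2.73 higher in Cyc than in Wt cells in experiment 1 and 0.86 higher in experiment 2. No test is given for this ratio. For Myl7, below 50 in a pool of each genotype, no ratio is given. In both experiments Myl2 differed more between the genotypes than Myl4 did.

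Of 7 tested muscle genes of energy supply Mb fell, none rose and 6 did not pass. Of all tested probe sets 0.116% fell and 0.735% rose. In 6 of the 7 the Cyc pools were both dimmer than the Wt pools, against 8.23% of all tested probe sets. Cox7a1, among these 6, entered the test through the Wt pools alone, so the filter fixed its order. The median log2 difference of the 7 genes was -0.72, with -1.08 in experiment 1 and -0.38 in experiment 2. Mb, the oxygen store of muscle, was at 202.8 and 189.8 in Cyc pools, against 641.3 and 304.0 in Wt pools, a difference of -1.59 in experiment 1 and -0.64 in experiment 2. The Wt pools were further apart than the Cyc pools, and Mb missed the thresholds without Wt 1 (-0.59), without Cyc 2 (-1.07), with quantile normalization (-1.10) and without a filter on dim probe sets.

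Fabp3, the fatty acid carrier of muscle, had intensities of 54.0 and 74.8 in Cyc pools, against 164.8 and 117.2 in Wt pools (log2 difference -0.96, standard error 0.29). Ckm, the creatine kinase of the myofibril, was at 42.1 and 59.3 in Cyc pools, against 105.0 and 81.9 in Wt pools (-0.72, standard error 0.27). Cox7a1, a muscle form of a subunit of cytochrome c oxidase, was at 48.3 and 44.7 in Cyc pools, against 120.2 and 73.6 in Wt pools, and was at least 1.88-fold lower. In these 3 genes, as in Mb and Myl2, the difference was larger in experiment 1. Cox6a2, another muscle subunit of that enzyme, and Eno3, the muscle enolase, had log2 differences of -0.39 and -0.39, and in experiment 2 alone of -0.11 and -0.01. Ckmt2, the mitochondrial creatine kinase, was not tested but lay in the same order, with 30.6 and 9.8 in Cyc and 56.9 and 37.6 in Wt cells. Pgam2, the muscle phosphoglycerate mutase, was the exception. It was at 14.9 and 60.7 in Cyc pools, against 78.9 and 26.2 in Wt pools, bright in Cyc 2 and Wt 1.

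**Figure D2:**
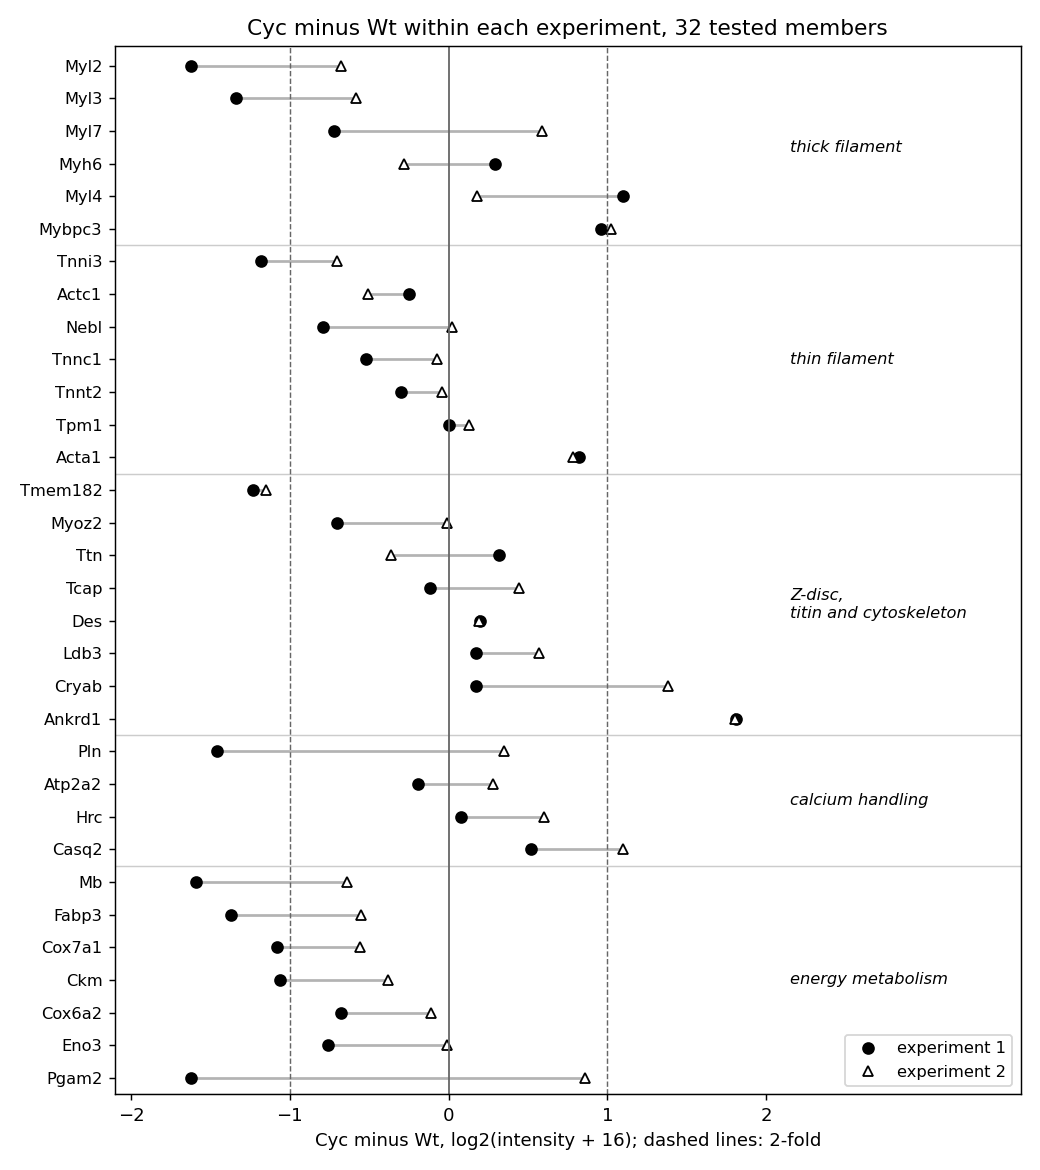
Difference between the Cyc and the Wt pool of each experiment, in log2(intensity + 16), for the 32 tested members by function, with filled circles for experiment 1, open triangles for experiment 2 and dashed lines at 2-fold. Ankrd1, Acta1 and Mybpc3 are to the right of 0 and Tmem182, Myl2, Myl3, Tnni3 and all metabolic genes but Pgam2 to the left of it in both experiments.

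The other thick filament genes were not all lower. Mybpc3, the cardiac myosin-binding protein C, had intensities of 113.9 and 74.5 in Cyc pools, against 50.8 and 28.6 in Wt pools. The Cyc pools were both brighter than the Wt pools and the differences were 0.96 and 1.02 in the experiments, just short of the thresholds (0.99, standard error 0.34). It passed with a pseudocount of 1 (1.25). Myh6 was at 589.8 and 183.8 in Cyc pools, against 480.4 and 227.0 in Wt pools. Its pools parted by experiment and not by genotype.

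Of the 7 thin filament genes none passed the thresholds. Tnni3, the cardiac troponin I, was closest, with 52.8 and 44.0 in Cyc and 139.5 and 81.4 in Wt cells and differences of -1.18 and -0.70. Tnnt2, the cardiac troponin T that ties the troponin complex to tropomyosin, was at 357.8 and 334.5 in Cyc pools, against 445.1 and 343.3 in Wt pools, a difference of -0.17 (95% confidence interval from -0.83 to 0.49). Tnnc1, the calcium-binding troponin C, had a difference of -0.29 with an interval from -1.17 to 0.58. The 3 troponin subunits of the heart thus had estimates below 0 in both experiments, but for Tnnt2 and Tnnc1 the difference in experiment 2 was -0.04 and -0.07. Actc1, the cardiac actin, was at 432.2 and 212.4 in Cyc pools, against 517.1 and 309.0 in Wt pools, with -0.25 and -0.51 in the experiments. Acta1 and Actc1, the actins of striated muscle, thus lay on opposite sides of 0 in both experiments. Tpm1, a tropomyosin that many cells other than muscle express, was the brightest thin filament gene, at 1479.1 and 1894.1 in Cyc pools, against 1483.4 and 1730.2 in Wt pools, with a difference of 0.06 and an interval from -0.62 to 0.74. Nebl, the nebulin-like Z-disc protein, was at 112.0 and 426.4 in Cyc pools, against 205.0 and 419.9 in Wt pools, dimmer in both pools of experiment 1.

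Of the 8 tested genes listed with the Z-disc, titin and the cytoskeleton, Ankrd1 rose and Tmem182 fell. This stands beside 0.735% of all tested probe sets that rose and 0.116% that fell. Tmem182, counted here although it is a membrane protein of muscle, was at 101.3 and 163.6 in Cyc pools, against 259.4 and 381.1 in Wt pools. It fell, with a log2 difference of -1.19 (standard error 0.34, limma, adjusted p = 1), and the experiments gave -1.23 and -1.15. Here the experiments were close, unlike in Myl2 and Mb, but Tmem182 missed the thresholds without Cyc 1 (-0.88) and without Wt 2 (-0.92). Cryab, a small heat shock protein that protects desmin, was at 690.9 and 907.6 in Cyc pools, against 610.8 and 338.3 in Wt pools. Cyc was brighter in both experiments, with differences of 0.17 and 1.38, and Wt 2 was the lowest pool. At its other tested probe set the genotypes overlapped, with -0.24 in experiment 1 and 1.04 in experiment 2. Des, the intermediate filament desmin, was at 137.0 and 141.5 in Cyc pools, against 117.2 and 122.0 in Wt pools, a difference of 0.20 with an interval from -0.39 to 0.78. Ttn, the giant protein titin, was at 239.7 and 57.1 in Cyc pools, against 189.5 and 78.1 in Wt pools, again parted by experiment. Ldb3, Tcap and Myoz2, which encode partners of α-actinin and titin at the Z-disc, had differences of 0.37, 0.16 and -0.36, each with an interval that holds 0.

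Of the 4 tested calcium-handling genes none passed. Casq2, the calcium store of the cardiac reticulum, was at 270.4 and 777.4 in Cyc pools, against 184.2 and 353.3 in Wt pools. It was brighter in Cyc in both experiments, with differences of 0.52 and 1.10, yet Cyc 1 lay below Wt 2. Pln, which encodes phospholamban, the brake of the calcium pump, was at 131.0 and 539.0 in Cyc pools, against 387.7 and 418.8 in Wt pools. Cyc 1 was low and Cyc 2 was the highest pool, giving -1.46 in experiment 1 and 0.35 in experiment 2, and its other 2 tested probe sets had this order of experiments too. Atp2a2, the pump itself, which most cells express, was the brightest member, at 2012.5 and 3074.5 in Cyc pools, against 2295.4 and 2534.5 in Wt pools, with a difference of 0.04 and an interval from -0.74 to 0.83. Hrc, a calcium-binding protein of the reticulum, had a difference of 0.34 with an interval from -0.37 to 1.04.

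The experiment, apart from genotype, parted some members more than genotype did. In a limma fit with genotype as a further term, Myh6 and Ttn were higher in experiment 1, by 1.32 (standard error 0.22, adjusted p = 0.061) and 1.47 (0.24, adjusted p = 0.061) on the log2 scale, and Nebl, Casq2 and Ldb3 were lower, with -1.38 for Nebl and -1.18 for Casq2, while Ldb3 was just past 2-fold. Over all tested probe sets, 0.319% were higher and 7.52% lower in experiment 1 by the same thresholds, and the median difference was -0.28. Both pools of experiment 1 were brighter than those of experiment 2 in 7 members (9.07% of all) and dimmer in 6 (51.6% of all). With quantile normalization, which brings that median to 0.03, Myh6 (1.65), Ttn (1.81), Actc1 (1.20) and Myl4 (1.10) were higher past the thresholds, and Nebl (-1.03) was lower. Under that setting 1.08% of all tested probe sets were higher and 2.34% lower. Actn2 and Ryr2, below 50 in every pool and not tested, were read brighter in experiment 1 within each genotype. Actn2 was at 38.6 and 19.1 in Cyc and 18.0 and 9.6 in Wt pools, with both Cyc pools above both Wt pools. Ryr2 was at 31.4 and 11.8 in Cyc and 14.9 and 7.8 in Wt pools. At these intensities no comparison is drawn from Actn2 and Ryr2. Ankrd1, Acta1 and Des had differences between experiments of 0.08, -0.01 and -0.05, and of 0.40, 0.33 and 0.32 with quantile normalization.

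**Figure D3:**
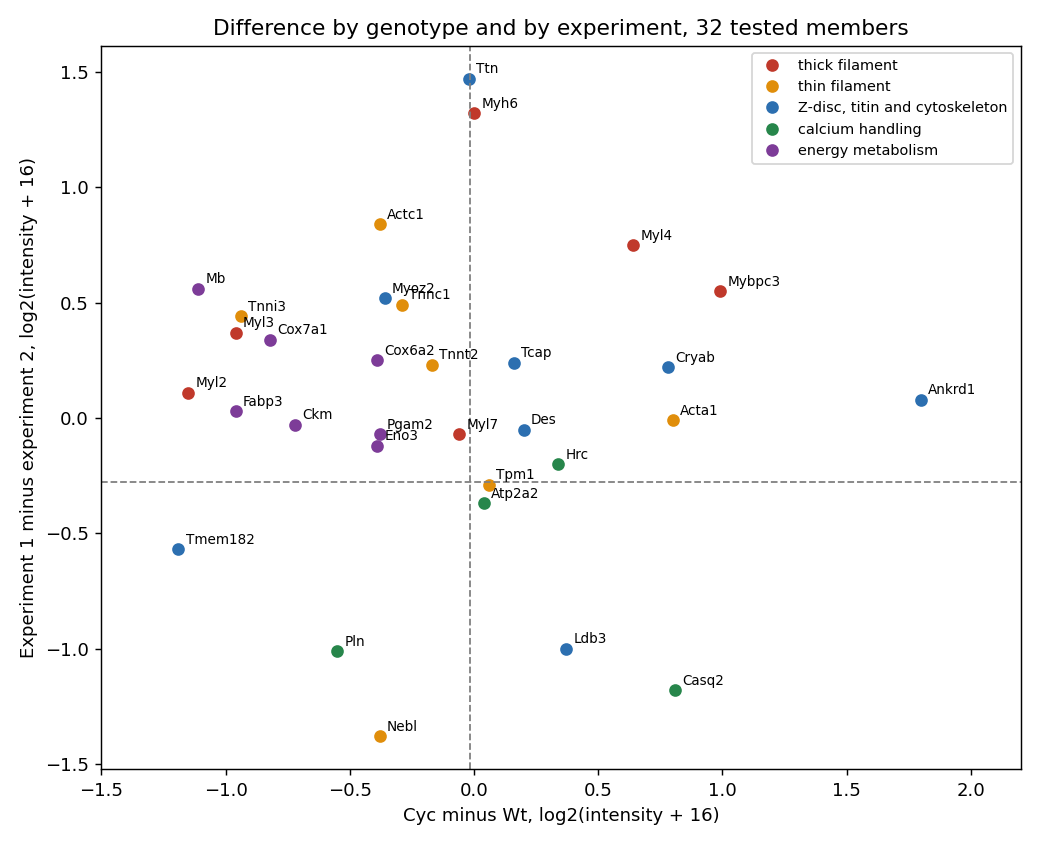
Log2 difference between Cyc and Wt (horizontal axis) against that between experiments 1 and 2 (vertical axis) for the 32 tested members, coloured by function, with dashed lines at the medians of all tested probe sets. Ttn and Myh6 lie at the top near 0 on the horizontal axis, Ankrd1 lies alone at the right, and Nebl, Casq2, Pln and Ldb3 lie at the bottom.

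Markers of other cell types were read in the same pools. The list of 6 genes that define cardiomyocytes (Myh6, Tnnt2, Tnni3, Actn2, Ryr2 and Ttn) summed to 1310.1 and 650.4 in Cyc pools, against 1287.4 and 747.2 in Wt pools, higher in experiment 1 in both genotypes. None of the 4 tested ones passed the thresholds between genotypes. The 8 metabolic members summed to 551.0 and 629.4 in Cyc pools, against 1446.0 and 841.4 in Wt pools. Smooth muscle and pericyte markers summed to 12816.7 and 24267.8 in Cyc pools, against 10997.1 and 15580.6 in Wt pools, lower in experiment 1 as Nebl, Casq2, Ldb3 and Pln were, with all 6 tested ones lower in both pools of experiment 1 than in either of experiment 2, as were 51.6% of all tested probe sets. All 6 were also higher in the Cyc pool of each experiment (26.1% of all), as Casq2 and Ldb3 were, with medians of 0.22 and 0.74, and none passed the thresholds. Cnn1 of that list lay below 50 in every pool. Their part in the differences of those 4 genes was not tested.

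Endothelial markers summed to between 32107.6 and 38458.5, with none near background. All 6 tested ones were lower in the Cyc pool of each experiment (29.1% of all), with medians of -0.21 and -0.12, and none passed the thresholds. Fibroblast markers summed to 38386.6 and 39522.8 in Cyc pools, against 39335.0 and 24583.3 in Wt pools, and Col1a1 of that list rose (log2 difference 1.16, standard error 0.40). Macrophage markers summed to 405.2 and 1117.5 in Cyc pools, against 458.2 and 194.0 in Wt pools. Cryab, like both sums, was lowest in Wt 2, although Pdgfra of the fibroblast list was lowest in Cyc 1. The part of these cells in the difference of Cryab was not tested. Of 6 B and T cell markers none was tested, and of 20 skeletal muscle genes 16 lay below 50 in every pool and none of the 3 tested ones passed. The tested ones were Casq1, Mylpf, at 70.0 to 110.9, and Tnnt1, a slow skeletal troponin T, at 119.2 and 54.9 in Cyc pools, against 36.2 and 43.4 in Wt pools, at least 1.62-fold higher and in the direction of Acta1. Tnnt1 also reached 50 in the Cyc pools alone, and the part of skeletal muscle in the values of Acta1 was not tested. Alas2, the one tested gene of 4 erythroid markers, did not pass. Of 4 Schwann cell markers 2 had a probe set, both below 50 in every pool.

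**Figure D4:**
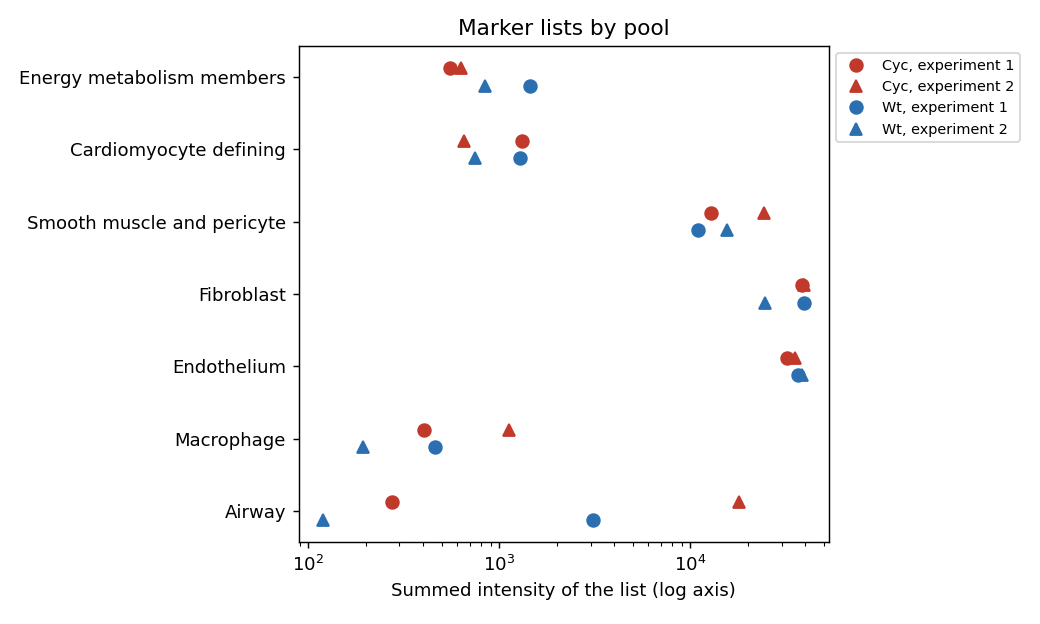
Summed intensity (log axis) of the 8 metabolic members and of 6 lists of cell type markers in each pool (red for Cyc, blue for Wt, a circle for experiment 1, a triangle for experiment 2). The metabolic members lie lower in both Cyc pools, the cardiomyocyte-defining genes part by experiment, and the summed airway markers are high in Cyc 2 and Wt 1.

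Of 34 further genes of cardiomyocytes, 15 were tested. Nppa and Nppb rose, none fell and 13 did not pass, beside 0.735% of all tested probe sets that rose. Nppb and Synpo2l reached 50 in the Cyc pools alone, so both had to differ to some extent. Nppa, the gene of atrial natriuretic peptide, was at 1481.9 and 627.7 in Cyc pools, against 171.5 and 119.5 in Wt pools. Nppb, the gene of a further natriuretic peptide, was at least 1.44-fold higher. Synpo2l, an actin-associated protein of the Z-disc, was at 81.8 and 85.3 in Cyc pools, against 35.2 and 35.3 in Wt pools, at least 1.67-fold higher, but missed the 2-fold threshold (0.96, standard error 0.22). Slc25a4, a nucleotide carrier of mitochondria, was the brightest of these genes. It was not lower in Cyc cells, at 3245.4 and 3857.9 against 2831.3 and 3533.0 in Wt cells. Cox8b of the same list, not tested, was lower, at 20.3 and 21.2 in Cyc and 60.5 and 38.2 in Wt cells. Myom2, not tested either, was higher, at 97.9 and 49.5 in Cyc and 26.7 and 15.3 in Wt cells. Of the 15 tested genes, 5 were brighter in both Cyc pools (15.1% of all tested probe sets) and 0 dimmer in both (8.23%). For Nppb and Synpo2l the filter fixed this order. Pdk4 had a difference of -0.29 (standard error 0.30). The median of the 15 genes was 0.26, with 0.18 and 0.50 in the experiments. Of 12 cardiac transcription factors 8 were tested and none passed, while Gata4, Nkx2-5, Tbx5 and Irx4 lay below 50 in every pool. Tbx20 was at 243.2 and 1366.6 in Cyc pools, against 177.0 and 147.2 in Wt pools, and passed with the experiment as a block. Mef2a, the brightest of them whose protein binds the MEF2 box, had a difference of -0.17 (standard error 0.37).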

How the data were processed

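Sca-1 cells of Cyc and Wt mice were profiled on Affymetrix GeneChip mouse arrays, 2 pools per genotype. The deposited values are probe set intensities on a linear scale, which the authors normalized in Resolver 7.2. The background correction and summary method are not given in the sources used here. Of 45037 probe sets without controls, 34945 have 1 gene symbol, 932 several and 9160 none in the platform annotation. Intensities below 0 were set to 0, 16 was added and log2 taken. Probe sets with 50 or more on at least 2 arrays (20680) were tested in limma 3.58.1 (R 4.3.3) two-sided, with variances moderated by 2.68 prior beside 2 residual degrees of freedom, with Benjamini-Hochberg adjustment. The Resolver error model of the study could not be run. Where both pools of a group lay below 50, a fold is the geometric mean of the brighter group over 50. A gene is given at its brightest probe set with that symbol alone. The code was tested on simulated data. Members, gene lists and the rule for named genes were chosen with earlier results of these data known. All members were named, and of other lists mainly the brightest or those past the thresholds. Protein sequences were not used here. The alternatives were pseudocounts of 1 and 50, no filter or one at 100, and quantile or median scaling. Further ones were the replicate number as a block (also with quantile normalization), an intensity trend and a t-test without moderated variances. The last were arithmetic means, other probe sets and leaving out each pool.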

Additional observations from a re-analysis of the deposited data

Results flagged for a closer look

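Pgam2 and Myl7 went in opposite directions in the experiments. The log2 difference between Cyc and Wt was -1.62 in experiment 1 and 0.86 in experiment 2 for Pgam2, apart by -2.48, and -0.72 and 0.59 for Myl7, apart by -1.31. With 1 pool per genotype and experiment this was not tested. Both genes were brighter in Cyc 2 and Wt 1 than in the other pools. The sum of 6 airway markers was also higher in these pools, at 274.3, 17867.4, 3075.0 and 119.0 in Cyc 1, Cyc 2, Wt 1 and Wt 2, led by the secretoglobin gene Scgb1a1 at 118.5 and 10194.7 in Cyc and 1783.7 and 3.2 in Wt cells. Within these pairs the order differed, as Pgam2 was brightest in Wt 1 and the sum in Cyc 2. Of the other markers Sftpc was bright in Cyc 2 alone (164.5), Sftpb was at 73.4 and 128.4 in Cyc and 65.3 and 69.2 in Wt cells, and Foxj1 lay below 50 in every pool. Their part in the values of Pgam2 and Myl7 was not tested.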

How the results depend on the processing

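Ankrd1 rose under all 15 alternatives, with log2 differences from 1.38 to 2.11. It passed the filter through the Cyc pools alone, which fixed its direction except in the fit without a filter. The alternatives reuse the same 4 pools and are not independent of each other. The 3 genes that fell kept their direction under every alternative. Not all other members did, as Pln had -1.51 without Cyc 2 and 0.41 without Cyc 1, and Nebl -1.28 and 0.51. The number of members that rose was 1, and 2 without a filter, with a pseudocount of 1 and with median scaling (Myh7 in the first, Mybpc3 in the others). The number that fell was 3, but 7 with a pseudocount of 1 (Myl3, Tnni3, Fabp3 and Cox7a1 in addition). It was 0 with a t-test without moderated variances, under which Ankrd1 passed. The study tested its arrays with the Resolver error model and not with this t-test. The number that fell was 2 without a filter and with quantile normalization, 4 with arithmetic means and 4 when any probe set of a gene could pass. When each pool was left out, from 1 to 3 members rose and from 1 to 5 fell, and the median ran from -0.51 to -0.01. Over all tested probe sets 581 rose without Cyc 1, against 152, and 1050 fell without Cyc 2, against 24. Such fits assume that the lone pool varies as the others do and set 1 experiment against both. In experiment 1 against 2, quantile normalization gave 4 members higher and 1 lower, against 2 and 3. Of all tested probe sets it gave 1.08% higher and 2.34% lower, against 0.319% and 7.52%.

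The deviations of same-numbered pools from their group means correlated at 0.447 over the tested probe sets, and the numbers were taken as pairing the pools. With the replicate number as a block, 1 member rose and 3 fell, the same genes as without it, and 191 and 47 of all tested probe sets did, against 152 and 24. The smallest adjusted p of these members was then 0.183, for Ankrd1. Intensities near 50 and 2 pools per genotype limit what can be seen of the dim members.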
